A study of Mus musculus with 4 samples.

Results

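Open chromatin peaks called in wild-type (WT) mouse chondrocytes but not in chondrocytes lacking a pair of Sox9 enhancers are described here. They were chosen by the peak lists themselves: a WT peak on an autosome was kept when no peak of the deletion library overlapped it by 1 bp or more. This selected 3569 of 88965 WT autosomal peaks, a share of 4.01%, and these are called absent peaks. The deletion list was nearly as long again as the WT list, and against only as many of its strongest peaks as WT had, 17957 WT peaks (20.2%) were absent. The other 85396 WT peaks overlapped a deletion peak and are called shared peaks.

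ATAC-Seq, which marks open chromatin by the sites where the Tn5 transposase inserts adapters, was performed on primary chondrocytes from the rib cartilage of newborn mice. The WT library carried intact enhancers. The deletion library was labelled E160(delta/delta);E308(delta/delta), a homozygous loss of the E160 and E308 elements upstream of Sox9 that was made by CRISPR/Cas9 editing of C57BL/6J embryos in successive steps. Cho replicate 1 was a library of primary rib chondrocytes with no genotype label, and it was not used to choose the absent peaks. Per the study, WT and deletion cells came from littermates. With 1 library per genotype, the lists describe libraries and not genotypes, so no p-value was computed. Intervals given with a share are 95% Clopper-Pearson intervals over peaks, which cover counting error only.

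Sox9 is the transcription factor that commits mesenchymal cells to cartilage, and its distant enhancers are spread over a long gene desert upstream of its promoter. A peak caller reports a site when more Tn5 insertions pile up there than the local background predicts. Repeated sequence is a known difficulty for such calls, since short reads from copies of a repeat cannot always be placed at 1 position.

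The strongest absent peaks are shown first, because most of them were built on short tandem repeats. They were ranked by fold enrichment, column 7 of the deposited list, which is the read pileup at the summit over its background with 1 added to both. Sequences are from the plus strand of NCBIM37 (mm9), and capitals mark only the longest exact tandem repeat of an entry, where it reached 20 bp. The E160 entry is a stretch centred on the summit, the Add1 entry is the strongest absent peak at a promoter, and the others are whole peaks.
Ttc37 intron, chr13:76278658-76278772: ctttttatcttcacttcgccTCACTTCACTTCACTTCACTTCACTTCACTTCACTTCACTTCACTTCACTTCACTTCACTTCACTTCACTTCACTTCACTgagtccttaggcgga
128 kb from Pou4f1, chr14:104736140-104736268: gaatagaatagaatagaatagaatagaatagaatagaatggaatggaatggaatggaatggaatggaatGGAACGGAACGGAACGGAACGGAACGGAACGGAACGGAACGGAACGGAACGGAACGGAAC
E160 enhancer, chr11:112482418-112482518: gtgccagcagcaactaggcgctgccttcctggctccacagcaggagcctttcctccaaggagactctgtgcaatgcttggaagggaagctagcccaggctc
Ppm1h intron, chr10:122122534-122122668: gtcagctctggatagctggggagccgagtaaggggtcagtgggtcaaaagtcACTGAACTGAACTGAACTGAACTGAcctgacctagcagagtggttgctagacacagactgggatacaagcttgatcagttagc
Tgm3 intron, chr2:129853040-129853134: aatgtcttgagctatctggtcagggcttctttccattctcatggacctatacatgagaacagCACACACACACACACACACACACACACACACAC
5S rRNA gene copy, chr1:46431053-46431168: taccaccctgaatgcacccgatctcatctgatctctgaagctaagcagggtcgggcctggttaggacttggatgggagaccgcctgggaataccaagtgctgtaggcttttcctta
Add1 promoter, chr5:34961839-34961970: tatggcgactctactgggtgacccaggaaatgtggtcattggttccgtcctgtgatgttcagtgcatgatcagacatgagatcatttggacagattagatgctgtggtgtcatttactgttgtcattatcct

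The strongest absent peak lay in an intron of Ttc37, which encodes a part of the SKI RNA decay complex. Its fold enrichment was 19.1 with a summit pileup of 25 reads, and its centre was an 80 bp run of the unit AAGTG, read on the other strand. The peak on chromosome 14, at 14.0, held a run of AACGG beside shorter runs of AATAG and AATGG. The peaks in Ppm1h, a protein phosphatase gene, and between genes 198 kb upstream of Bche both stood at 13.2, with units AACTG and AATTC. Introns of Tgm3, a transglutaminase gene (12.5), Cdh18, a cadherin gene (11.03), and Pdgfa, a growth factor gene (10.9), each held a run of AC. Thus 8 of the 10 strongest absent peaks held a tandem repeat of at least 20 bp within 100 bp of the summit.

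The remaining pair were the 5S rRNA gene copy n-R5s211 (11.03) and the E160 enhancer. At E160 the fold enrichment was 13.4, the pileup 31 reads and the width 336 bp. The other 9 were between 95 and 135 bp wide. Of the 10 strongest, 1 overlapped a peak in Cho replicate 1, and this was E160, where the Cho fold enrichment was 11.4. The nearest deletion peak was between 1.87 kb and 196 kb away from these peaks.

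**Figure D1:**
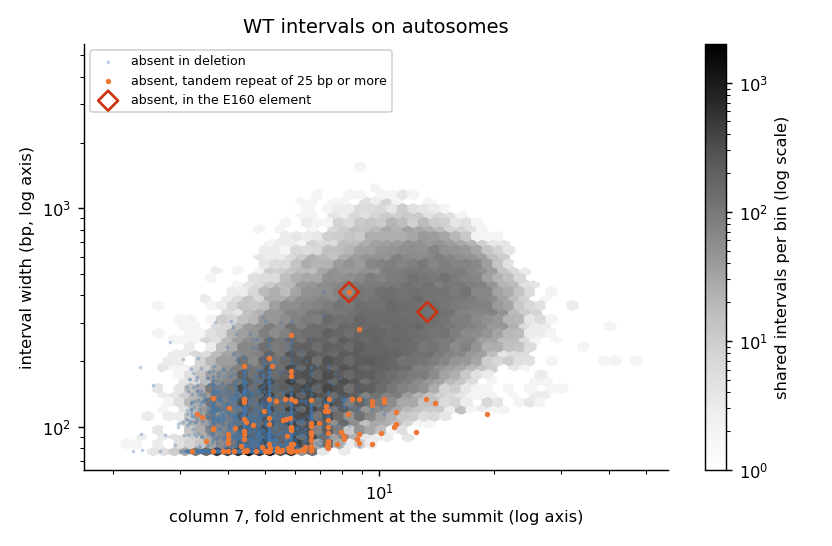
Fold enrichment (column 7, log axis) against width in bp (log axis) for WT autosomal peaks. Grey bins count the shared peaks, blue points are absent peaks, orange points are absent peaks with a tandem repeat of at least 25 bp, and red diamonds are the 2 absent peaks in E160. The absent peaks lie at the narrow, weak edge of the shared peaks, and the E160 peaks at 8.32 and 13.4 lie inside the bulk of the wide shared peaks.

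The deleted elements were then examined, as a check of the labels. WT had 2 peaks in E160, and both were absent peaks with no deletion peak within 4.98 kb. The first spanned chr11:112482251-112482586, and the second, chr11:112482863-112483276, had a fold enrichment of 8.32, a pileup of 19 reads and a width of 414 bp. WT also had 2 peaks in E308. The stronger, chr11:112334638-112334879, had a fold enrichment of 15.4 and a pileup of 26 reads, and it was a shared peak, because the deletion library held a 124 bp peak inside it. That deletion peak had a fold enrichment of 3.07 and a pileup of 4 reads, the smallest pileup called in the library. The weaker E308 peak, chr11:112335169-112335246, with a fold enrichment of 5.06 and 8 reads, was absent. Thus E160 had no call in the deletion library, and a call at the lower limit of the list lay within E308. Whether the deleted stretch covers that call was not worked out, so the label of E308 is not settled by it. Per the study, genomic PCR showed the loss of both elements, and their peaks could not be detected in deletion chondrocytes. The weak call within E308 differs from the latter statement.

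Within 1.5 Mb upstream of Sox9, 8 of 56 WT peaks were absent (14.3%, 6.38 to 26.2%), beside 4.01% of all WT peaks. Without the 3 absent peaks in the deleted elements it was 5 of 53 (9.43%, 3.13 to 20.7%), an interval that holds the share of all WT peaks. These 5 lay at −1431, −1419, −892, −622 and −42.3 kb from the transcription start site (TSS). Their fold enrichments were 5.88, 5.15, 6.62, 7.35 and 3.68 in that order, and their pileups were 7, 6, 8, 9 and 4 reads. The 3 absent peaks that overlapped a Cho replicate 1 peak were the 3 in the deleted elements. Among the 48 shared peaks of the same stretch, 16 overlapped one. The peak at −622 kb had a deletion peak 93 bp away, whereas those at −1431 and −1419 kb lay 26362 and 13744 bp from the nearest.

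**Figure D2:**
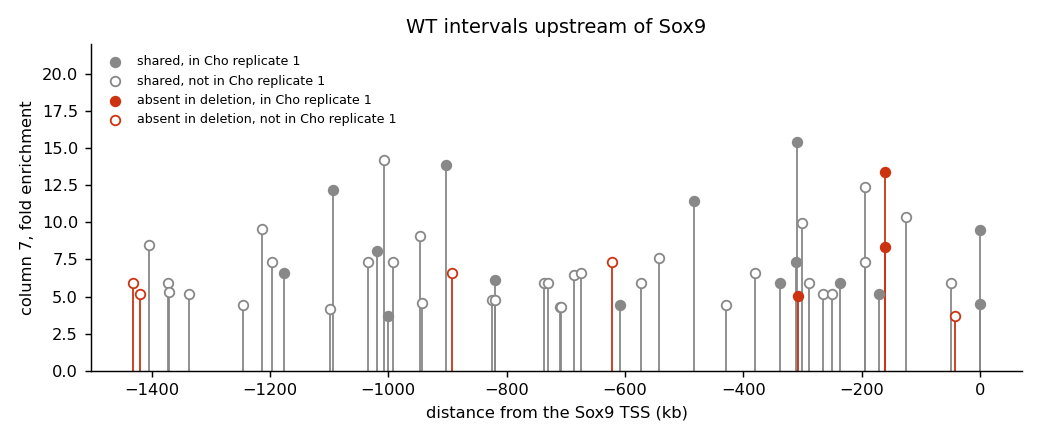
WT peaks within 1.5 Mb upstream of Sox9, by distance from the TSS (kb) and fold enrichment (column 7). Red lines are the 8 absent peaks and grey lines the 48 shared peaks, and filled heads overlap a Cho replicate 1 peak. Filled red heads stand only at the positions of E308 and E160, and the 2 E160 peaks are the highest red lines.

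Most absent peaks were weak in WT. Their median fold enrichment was 4.90 (quartiles 4.37 and 5.74), against 7.12 (5.25 and 10.3) for shared peaks. The full range was 2.25 to 19.1 for absent and 1.98 to 48.7 for shared peaks, so every absent peak lay within the range of shared peaks. The median summit pileup was 6 reads for absent and 11 for shared peaks. Pileups of 4 to 7 reads made up 72.6% of absent peaks (2591) and 24.3% of shared peaks. These values come from the same list as the choice of the peaks and are a description.

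The share of WT peaks that were absent was lower at each higher pileup. It was 19.6% at 4 reads (17.4 to 22.1%), 10.6% at 6 reads (9.97 to 11.3%) and 3.62% at 9 reads (3.17 to 4.11%). At 12 to 15 reads it was 0.865%, and at 21 reads or more it was 0.0826%, or 16 peaks of 19379. The deletion library was the deeper one, with an estimated 8697 tags per Mb against 4622 in WT, and it had 165538 autosomal peaks. Scaled by the most frequent background of each library, a WT pileup of 6 reads corresponds to 10.4 reads in the deletion library, and scaled by depth to 11.3. The smallest pileup called there was 4 reads. This scaling takes WT pileups at face value, although the absent peaks were chosen by a WT call. The part of depth in these calls was not tested. A missed call at a low pileup, fewer cells with an open site and less access per cell cannot be told apart in such bulk libraries.

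**Figure D3:**
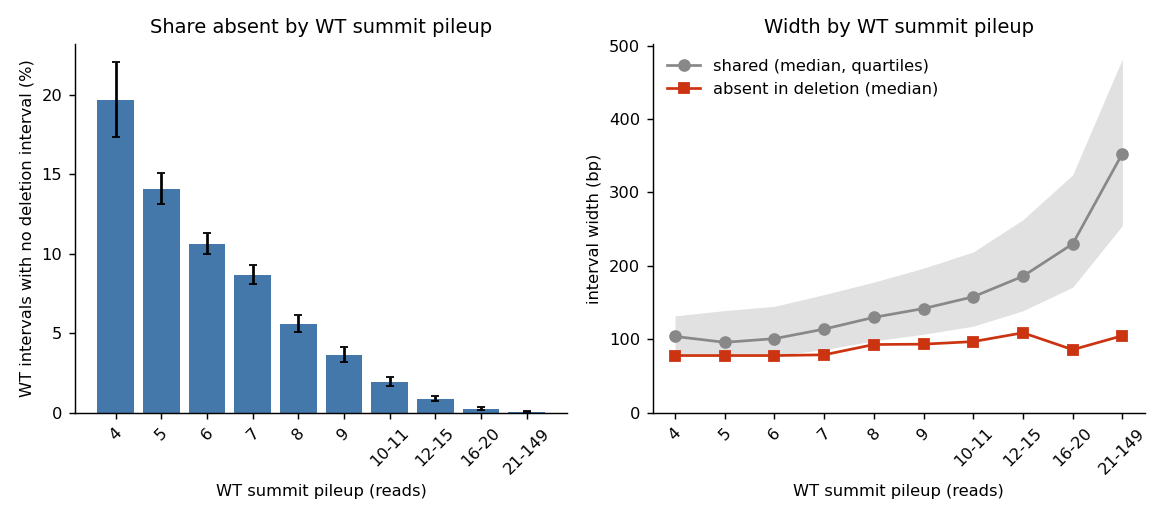
Left, percent of WT autosomal peaks absent from the deletion library by WT summit pileup in reads, with 95% Clopper-Pearson intervals. Right, median peak width in bp of absent (red) and shared (grey, with quartiles shaded) peaks in the same pileup classes. The absent share goes from 19.6% to 0.0826%, and the width of absent peaks stays at or below 109 bp in every class while that of shared peaks rises to 353 bp.

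Absent peaks were narrow at every height, but the rule itself favours narrow peaks. A wider WT peak has more bases that can meet a deletion peak, so the widths are a description, also for peaks of like height. Their median width was 83 bp, against 177 bp for shared peaks. To compare peaks of like height, the shared peaks were weighted to the fold enrichments of the absent peaks in 10 classes (matched on fold enrichment), or to their whole summit pileups (matched on pileup). The median width of shared peaks was then 120 bp and 115 bp. The smallest width in the list, 78 bp, was held by 42.3% of absent peaks (40.7 to 44.0%), against 20.5% of shared peaks matched on fold enrichment and 22.4% matched on pileup.

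Even the higher absent peaks were narrow. Of the 348 absent peaks with 10 reads or more, 319 (91.7%) were at most 150 bp wide, against 20.6% of the 51777 shared peaks with 10 reads or more. These sets were not matched on height, since 41 of the absent and 29101 of the shared peaks had 16 reads or more. At 10 to 11 reads the median widths were 97 bp for absent and 158 bp for shared peaks. A tandem repeat stood at 10.1% of these 348 peaks (7.11 to 13.7%), against 1.32% of the shared ones.

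The 16 absent peaks with 21 reads or more were of distinct kinds. In 12 of them a deletion peak lay within 13 to 406 bp, the fold enrichment was only 2.25 to 5.21, and the local background was 3.60 to 31.0 reads, against 0.361 for the library as a whole. The names given here were chosen after their values were seen. The highest pileups of the 12, 87 and 58 reads, lay at Gm11167 and Gm10715 on chromosome 9, with 35 and 37 copies of the summit in the genome. Another, near Tcte2, had 3 copies, and further ones lay near Frmd8, Actg1, Thbs1 and Hfe2. The rest lay near genes of early responses, and among them was a peak 415 bp from the TSS of Junb, which encodes an AP-1 subunit. It had 27 reads over a background of 10.7. The others lay 3.45 kb from Fos, another AP-1 gene (32 reads over 13.6), 3.19 kb from Dusp1, a MAP kinase phosphatase gene (30 reads over 11.1), and 4.66 kb and 5.70 kb from Btg2, an antiproliferative gene. The remaining 4 peaks were the one in Ttc37, the first E160 peak, the 5S rRNA copy n-R5s102 and a peak 25.5 kb from Zswim4.

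The distance to the nearest deletion peak split the absent peaks. Its median was 1473 bp (quartiles 203 and 5242 bp). A deletion peak lay within 500 bp of 1290 absent peaks (36.1%), within 5 kb of 73.9% and within 100 kb of 98.7%. At the border of the rule, the 268 absent peaks with a deletion peak within 50 bp had a median fold enrichment of 4.41, and 24.3% overlapped Cho replicate 1. The 1220 shared peaks overlapped by at most 50 bp had a median of 4.57, and 25.2% of them overlapped Cho replicate 1. Peaks just inside and just outside the rule thus had like values.

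**Figure D4:**
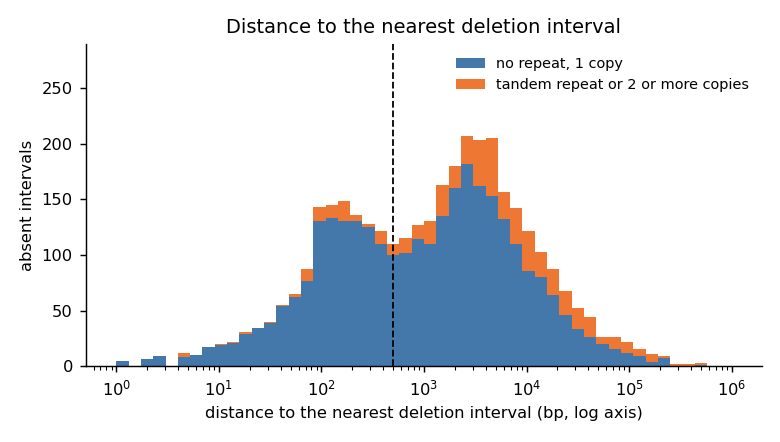
Distance in bp (log axis) from each absent peak to the nearest deletion peak, with peaks holding a tandem repeat or a repeated summit in orange. The dashed line marks 500 bp, within which 1290 of 3569 peaks lie, and the distances form a smaller group near 100 to 300 bp and a larger one at a few kb.

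The near and the far absent peaks differed in what they held. Of the 1290 near peaks, 23.4% overlapped a Cho replicate 1 peak (21.1 to 25.8%) and 19.6% had a summit within 1 kb of a TSS (17.5 to 21.9%). Of the 2279 far peaks, 5.35% overlapped one (4.47 to 6.36%) and 4.08% were at a TSS (3.31 to 4.98%). Tandem repeats were the other way round, at 2.02% of near and 6.49% of far peaks. Another WT peak lay within 500 bp of 56.4% of near peaks but of 1.05% of far peaks.

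Cho replicate 1 gave a measure that the choice of peaks had not used. Of the absent peaks, 424 (11.9%, 10.8 to 13.0%) overlapped a Cho replicate 1 peak, against 57.6% of all WT autosomal peaks. The share was 59.6% for shared peaks, 47.7% when these were matched on fold enrichment and 38.9% when matched on pileup. In each of the 10 classes of fold enrichment the absent peaks had the lower share, from 20.2% against 49.0% in the lowest class to 2.80% against 69.8% in the highest. The highest class is wide, and its peaks had a median fold enrichment of 7.11 when absent and 9.59 when shared. By pileup the share was also lower in absent peaks throughout. In both sets it was highest at the highest pileups, but it did not go up at each step. It was 14.0% of absent against 34.4% of shared peaks at 4 reads, and 8.17% against 34.9% at 6 reads. At 16 to 20 reads it was 32.0% against 73.3%, and at 21 reads or more 43.8% (7 of 16) against 90.1%. With the WT summit itself required to lie in a Cho replicate 1 peak, the shares were 10.5% and 45.2%, matched on fold enrichment.

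The 424 absent peaks that overlapped a Cho replicate 1 peak were mostly those beside a deletion peak. Cho peaks were wider, at least 200 bp with a median of 404 bp, against 78 and 171 bp in WT. An overlap with such a peak therefore need not mark the same site. A deletion peak lay within 500 bp of 71.2% of them, and 31.8% were at a TSS. The Cho peaks they overlapped had a median fold enrichment of 6.33, against 9.29 for those overlapping shared peaks. After the pair in E160, the strongest in WT lay 42.4 kb from Xpnpep1, an aminopeptidase gene (7.91), in an intron of Gpr176, a receptor gene (7.53), and in an intron of Cdkl4, a kinase gene (7.49). Each of these had a deletion peak within 150 bp, whereas the E160 peaks had none within 4.98 kb.

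**Figure D5:**
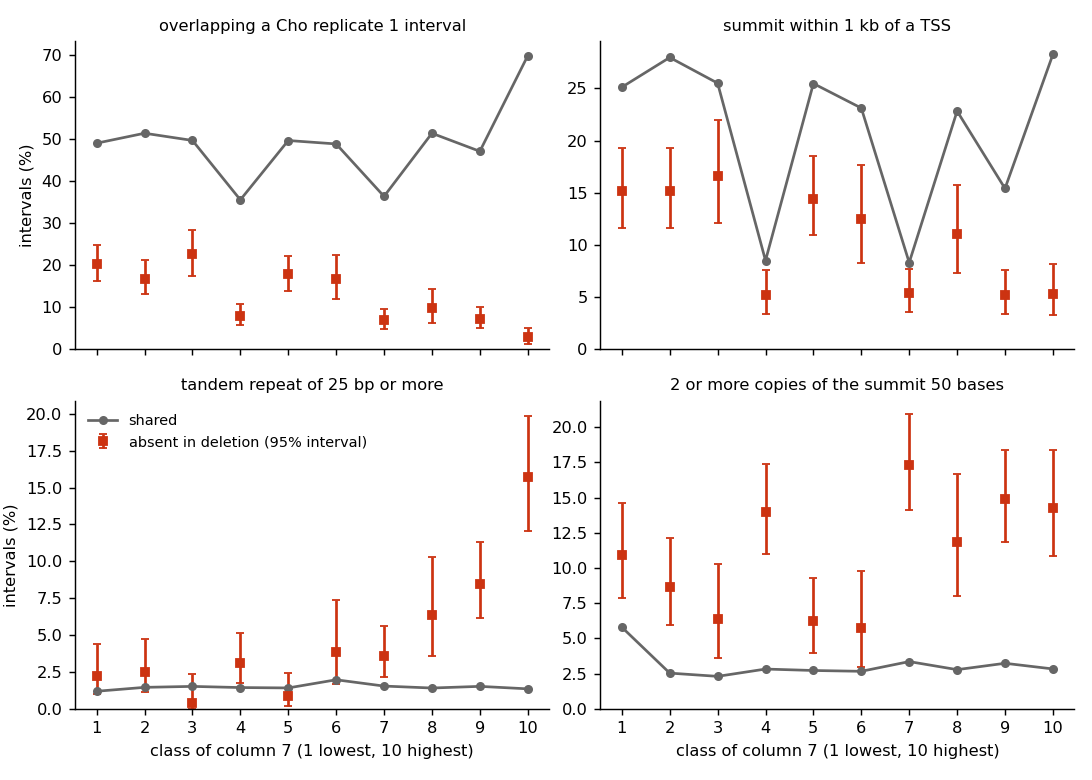
Percent of absent (red squares, with 95% Clopper-Pearson intervals) and shared (grey) WT peaks in 10 classes of fold enrichment (1 lowest, 10 highest) that overlap Cho replicate 1, have a summit within 1 kb of a TSS, hold a tandem repeat of at least 25 bp, or have 2 or more genomic copies of the 50 bases at the summit. The absent peaks lie below the shared ones in every class for Cho overlap, and in the highest class 2.80% of them overlap Cho replicate 1.

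Repeated sequence was more frequent at absent peaks, both with shared peaks matched on fold enrichment and with shared peaks matched on pileup. An exact tandem repeat of at least 25 bp, with a unit of up to 6 bp, lay within 100 bp of the summit in 174 absent peaks (4.88%, 4.19 to 5.63%). The share was 1.46% for shared peaks matched on fold enrichment and 1.51% matched on pileup. Absent peaks had the higher share in 8 of 10 classes of fold enrichment, with 15.7% against 1.35% in the highest class.

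Runs of AC were the most frequent, in 51 absent peaks, followed by A in 20, AG in 18 and AGC in 13. The absent share of all WT peaks with the unit differed between units. It was 13.5% for AC, 13.2% for A, 9.94% for AG and 35.1% for AGC. Among rarer units it was 35.3% for AATGG (6 absent peaks) and 6.45% for ACAGC (2 absent peaks).

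Copies of the summit sequence gave the same picture. The 50 bases centred on the summit occurred at 2 or more positions of the genome, on either strand, for 424 absent peaks (11.9%, 10.8 to 13.0%; by coincidence the same number as for Cho overlap). The share was 3.17% of shared peaks matched on fold enrichment and 2.85% matched on pileup. The absent share was higher with more copies. It was 3.66% of WT peaks with 1 copy (3.53 to 3.78%), 10.7% with 2 to 9 copies (9.21 to 12.2%), 13.1% with 10 to 99 (10.7 to 15.8%), and it reached 27.2% with 100 or more (23.5 to 31.1%). A tandem repeat or several copies marked 555 absent peaks (15.6%), and 3014 (84.4%) carried neither. The part of read placement in these calls was not tested.

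Annotated genes of small structural RNAs and miRNAs held 7 absent peaks of 235 WT peaks (2.98%, 1.21 to 6.04%), beside 4.01% of all WT peaks. At 5S rRNA genes 5 of 48 were absent (10.4%, 3.47 to 22.7%). At snRNA genes, whose products form the spliceosome, it was 0 of 55, which allows a share of up to 5.45% by a limit of 3 counts, and at misc_RNA genes it was 0 of 17. It was 1 of 38 at snoRNA genes, which guide rRNA modification, and 1 of 77 at miRNA genes.

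At promoters the outcome depended on how peaks were matched. A summit lay within 1 kb of the TSS of a protein-coding gene in 346 absent peaks (9.69%, 8.74 to 10.7%), against 24.0% of shared peaks and 19.6% of those matched on fold enrichment. Matched on pileup, the share of shared peaks was 10.2%, so absent peaks with the same number of reads were at promoters about as often. GC content behaved alike, with a mean of 48.9% around absent summits, 51.7% around shared ones matched on fold enrichment and 49.4% matched on pileup. The median distance to a TSS was 24.2 kb, against 15.7 kb matched on fold enrichment and 25.6 kb matched on pileup. With equal numbers of deletion and WT peaks, matched on fold enrichment, promoter shares were 19.1% of absent and 18.9% of shared peaks, and GC means were 51.5% and 51.4%. Against shared peaks of equal pileup, a difference in promoter share was not shown, and the difference in mean GC was small, at −0.488 points.

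The strongest absent peak at a promoter lay 97 bp upstream of Add1, which encodes the cytoskeletal protein adducin, with a fold enrichment of 9.56 and 12 reads. It held no long repeat, had 1 copy in the genome and had its nearest deletion peak 5.62 kb away. The next, at Gm4724 (8.72), had 21 copies of its summit, and that at Gria1, a glutamate receptor gene (8.09), had 156 copies and an 86 bp run of ACAG. Kng2, a kininogen gene (7.88), and Usp47, a deubiquitinase gene (7.79), had deletion peaks 123 and 130 bp away. Trpc4ap (7.68), Homez (7.37), Npm2, Gm17662 and Pus7 (each 7.35) completed the 10. None of the 10 overlapped Cho replicate 1, but in this they do not stand for all absent promoter peaks. Among all absent peaks, 31.8% of those overlapping Cho replicate 1 were at a TSS, against 6.71% of those without an overlap.

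Motifs were searched on both strands in the 100 bp on each side of the summit. Matches are letters in the reference and not sites of binding. The AP-1 motif TGANTCA was in 10.3% of absent peaks (9.33 to 11.4%), against 19.7% of shared peaks matched on fold enrichment and 22.4% matched on pileup. The CTCF motif was in 1.06% (0.755 to 1.46%), against 3.04% and 3.90%. AP-1 is a factor of growth and stress signals and CTCF shapes chromatin loops. Both motifs were less frequent in absent peaks under either weighting, and also among the 3014 absent peaks with neither repeats nor copies (9.49% for AP-1 and 1.16% for CTCF).

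The motif of SOX factors went the other way. ACAATGG was in 114 absent peaks (3.19%, 2.64 to 3.82%), against 1.73% matched on fold enrichment and 1.81% matched on pileup. Among the absent peaks with neither repeats nor copies its share was 3.42% (2.80 to 4.13%), against 1.704% and 1.81%. TGTGGT of the RUNX factors was in 19.8%, against 20.3% and 22.5%, and GGAATG of the TEAD factors was in 13.9%, against 17.8% and 19.2%. TAATCC of the PITX factors was in 6.11% (5.34 to 6.94%), with 4.84% and 5.19% both below this interval. Interspersed repeats were not assessed, because the genome used is not masked, so their part in this share was not tested. TTGGCA of NF1 was in 17.1% (15.9 to 18.4%), against 16.7% and 18.5%. For GGGCGG, bound by SP factors, 7.93% of absent peaks had a match, against 14.0% matched on fold enrichment but 8.70% matched on pileup. CCAAT, bound by NFY, was in 25.9% (24.5 to 27.4%), against 21.9% and 23.2%. Among the absent peaks with neither repeats nor copies it was in 23.8% (22.3 to 25.4%), against 21.6% and 22.6%. That interval holds the share matched on pileup.

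Along the chromosomes the absent peaks were spread widely. Their share of WT peaks ran from 3.23% on chromosome 11 (2.80 to 3.69%) to 4.89% on chromosome 1 (4.37 to 5.46%). Of the WT peaks next to an absent peak, 4.99% were absent (4.50 to 5.52%), against 3.97% of those next to a shared peak. With the peaks that held a tandem repeat or several copies left out, these shares were 3.98% and 3.53%. Other rules gave a wider gap, with 4.26% against 2.52% when no deletion peak was allowed within 500 bp and 25.2% against 18.9% with equal numbers of deletion and WT peaks. Of 1891 windows of 1 Mb with at least 10 WT peaks, 429 had no absent peak, and the median share was 3.45%.

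The windows with the highest shares lay in gene families that occur in tandem copies. In chr2:176000001-177000000, 8 of 25 WT peaks were absent (32.0%), all 8 with several copies of their summit, in a cluster of predicted genes such as Gm14295 and Gm14305. In chr5:26000001-27000000 it was 3 of 10, beside Speer4a, and in chr5:15000001-16000000 6 of 23, beside Speer4c and Speer4d, members of a family of testis genes. In chr14:53000001-54000000, 4 of 15 were absent among olfactory receptor genes (Olfr1507 to Olfr1511). In chr16:89000001-90000000, 4 of 14 were absent among hair keratin-associated protein genes (Krtap), and there each summit had 1 copy.

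Unbroken runs of absent peaks were short. There were 3221 runs of 1 peak, 165 of 2, 3 of 3, 1 of 4 and 1 of 5. The run of 5 spanned chr5:15051846-15210905 near Speer4c, with fold enrichments of 3.98 to 4.49 and 2 to 6 copies of each summit. The run of 4, chr5:25409540-26349573, lay near Actr3b, an actin-related gene, and 1 run of 3, chr7:66879766-67300535, lay near the imprinted gene Snrpn. None of the peaks in these 3 runs overlapped Cho replicate 1.

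Genes of cartilage had shares of absent peaks near the 4.01% of all WT peaks. Peaks were assigned to genes by the nearest TSS. For cartilage matrix genes 6 of 163 peaks were absent (3.68%, 1.36 to 7.84%), 2 of them at Col27a1, a fibrillar collagen gene, and 1 each at Col9a1, Col11a1 and Comp. For chondrocyte transcription factors it was 21 of 414 (5.07%, 3.17 to 7.65%), with 4 of 35 at Sox9, 4 of 46 at Zbtb20 and 3 of 49 at Sox5, a partner of Sox9. Of the 4 at Sox9, 2 were the peaks in the deleted E160 element, which this share includes. For growth plate signals it was 10 of 298 (3.36%, 1.62 to 6.08%), with 3 at Gli2, a mediator of Hedgehog signals, and 2 each at Bmp2 and Bmp6. Each interval held the share of all WT peaks.

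Genes of other programmes had like shares. Hypertrophic and osteoblast genes had 9 of 161 (5.59%, 2.59 to 10.3%), of which 5 of 35 were at Runx2, the factor of bone formation. Their fold enrichments were 3.27 to 6.62, and none overlapped Cho replicate 1. Fibroblast and tendon genes had 6 of 144 (4.17%), and AP-1 genes 4 of 93 (4.30%). Blood and endothelial genes had 9 of 156 (5.77%), of which 5 of 60 were at Runx1, and muscle genes had 1 of 34 (2.94%). The genes with most absent peaks were Scaf8, with 6 of 19, and Zfp608, with 6 of 66, and 2786 of 16848 genes were the nearest to at least 1.

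Marker genes of cell types were checked in both libraries. A summit within 1 kb of a TSS was present at 8 of 8 chondrocyte markers in WT and in the deletion library. For osteoblast markers it was 2 and 3 of 4, for fibroblast 2 and 3 of 3, for muscle 1 and 3 of 4, for blood 0 and 1 of 4, and for endothelial 2 and 2 of 4. The deletion list was the longer one, which by itself can raise such counts. Both endothelial markers with a WT summit had the higher fold enrichment in the deletion library. It was 8.31 in WT and 16.5 in the deletion at Pecam1, and 4.41 and 7.99 at Tek. Fold enrichment moves with depth, and the deletion library was the deeper one, so these values do not compare endothelial signal between libraries. Chondrocyte markers moved both ways, as at Sox9 (9.47 and 8.68) and Col11a2 (10.8 and 11.5). The part of cell makeup in the absent peaks was not tested.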

How the data were processed

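Peak lists of 3 of 4 ATAC-Seq libraries were used, 1 each of WT, the deletion and Cho replicate 1. Per the submitters' processing notes, the authors used fastp, Bowtie2 2.4.4, Picard 2.20.7, SAMtools 1.9 and MACS2 2.2.4 on mm9, and the study's methods give a q-value of 0.05. The deposited lists give, per peak, a fold enrichment (column 7, a ratio of summit pileup to background), the −log10 of the p-value, the −log10 of the q-value, and a score of 10 times the −log10 q-value. These values move with depth. The other Cho replicate, whose positions are not those of mm9, was not used here.

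The absent peaks and the gene and motif lists were chosen with earlier results of these data known. Summit pileups were solved from fold enrichment and p-value under a Poisson model, tested on simulated data, and a whole pileup was found for 100% of WT and deletion peaks. Depth was estimated from the most frequent background. Shared peaks were weighted to the absent peaks in 10 classes of fold enrichment, or by whole pileup, an alternative chosen after seeing the data. Peaks named are the 10 strongest absent peaks, those near Sox9, the 10 strongest at promoters, the 5 strongest overlapping Cho replicate 1, the 3 longest runs, the 5 windows of highest share, and up to 3 genes per list. Of the 10 strongest, 1 is counted but not reported here. Wherever a name falls outside this rule, it was chosen after its values were seen. Genome and genes were NCBIM37 and GENCODE vM1, and each TSS of a protein-coding gene was used. Python 3.11.15, numpy 2.4.6, pandas 2.3.3, scipy 1.17.1 and pysam 0.24.0 were used. Signal tracks were not used here.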

Additional observations from a re-analysis of the deposited data

How the results depend on the processing

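The values below are differences, absent minus shared peaks, in fold enrichment for medians and in percentage points for shares. Matched on fold enrichment, they were −35.8 for Cho overlap, −9.90 for promoters, −2.75 for GC, 3.41 for tandem repeats and 8.71 for copies. Unmatched, the median fold enrichment differed by −2.21 and the share of absent neighbours by 1.02. Of 79 alternatives, 27 stayed close to these values, 50 moved and 2 reversed. Close means within the counting error of the value for absent peaks alone, or within 1.5 times for the count of absent peaks. That count was 5053 with at least 50% of the WT peak to be covered and 5199 with its summit to be covered. The cause was not tested. With at least 50% of the WT peak to be covered, the median, Cho, promoter, tandem repeat and copy values were −2.35, −33.1, −8.77, 2.50 and 7.13, and with the WT summit itself to be covered −2.40, −31.6, −8.73, 2.50 and 6.57. With no deletion peak within 500 bp, 2279 peaks were absent, and the values (median, Cho, promoters, GC, tandem repeats, copies, neighbours) were −1.88, −43.1, −16.0, −4.03, 5.02, 12.5 and 1.74. With WT peaks of q below 1e-05, 1057 were absent, with −2.40, −45.1, −11.8, −4.54, 9.12, 10.7 and 0.492 in the same order. With only as many deletion peaks, the strongest, as WT peaks, 17957 were absent, with −2.91, −18.7, 0.258, 0.116, 1.07, 4.98 and 6.29, so promoters and GC turned in direction. Without matching, Cho, promoters and GC stood at −47.7, −14.3 and −4.14, and in steps of 0.25 of fold enrichment at −33.7, −8.30 and −2.32. Matched on pileup they were −27.0, −0.536 and −0.488, so that the promoter and GC differences nearly vanished. Matched on fold enrichment and width, Cho overlap and promoters were −29.2 and −7.01, and in classes of q-value Cho overlap was −33.2. A 2 kb window gave −11.4 for promoters, and tandem repeats of at least 40 bp gave 1.90. Without repeats and copies, GC was −3.05 and neighbours 0.448. Neighbours within 10 kb gave 0.380 and those farther away 1.57. The repeat share planned from lower-case letters was not run, because the genome used is not masked in that way, and exact tandem repeats and copy numbers took its place after the data were seen. No paired analysis was possible because each genotype had 1 library. A call that is missing from a list is not a measured absence of signal, and low pileups limit what most of these peaks can show.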
